A study of Mus musculus with 6 samples.

Results

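Feedback inhibitors are proteins that an inflammatory signal induces and that then damp the same signal. The genes described here are 10 such inhibitors, picked by name: the suppressors of cytokine signalling Socs1, Socs3 and Cish, the MAP kinase phosphatases Dusp1, Dusp2 and Dusp16, the ubiquitin-editing regulators Tnfaip3, Tnip1 and Cyld, and the mRNA-decay factor Zfp36. A probe was taken for a member when the array annotation gave it exactly 1 gene symbol and that symbol was the member's. This found 16 probes of 9 members among 16281 probes and 10698 named genes, and 15 of these probes had a ratio on all 6 arrays. Cyld had no probe under its symbol and was not analysed here. The other Tnip1 probe (number 12304) stood at exactly 0 on all 6 arrays, which was read as no ratio given.

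The cells were RAW 264.7, a mouse macrophage-like line, cultured for 16 hours. Treated cells received bacterial lipopolysaccharide (LPS) at 100 ng/ml with LPS-binding protein at 100 pM, a carrier that delivers LPS to its receptor, and untreated cells received neither. RNA of both was hybridised together on 6 two-colour arrays, 3 with the treated RNA in Cy5 (red) and 3 with it in Cy3 (green), and each orientation was numbered as sets 1 to 3. The labels do not state separate cultures, and a p-value here reflects only how far the arrays and sets scattered, possibly for technical reasons. One cell line at one time and dose was studied, and part of the labels write its name as 264.4. Macrophage markers Ptprc, Cd68, Csf1r, Adgre1, Lyz2 and Spi1 had ratios on all 6 arrays, and so did the T cell marker Cd3e (log2 0.11, adjusted p = 0.519 in limma), while Itgam had no probe. A ratio gives no level, so the cell type could not be checked beyond this.

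LPS is sensed by Toll-like receptor 4, which activates NF-kappaB and the MAP kinases, and the interferons and cytokines that follow signal through JAK kinases and STAT factors. SOCS proteins block JAKs or their receptors, the nuclear and cytoplasmic DUSP phosphatases switch MAP kinases off, A20 (Tnfaip3) with its binding partner ABIN1 (Tnip1) edits the ubiquitin chains that carry the signal to NF-kappaB, and tristetraprolin (Zfp36) binds AU-rich elements of cytokine mRNAs and speeds their decay. Many of these genes are themselves targets of NF-kappaB, STATs or MAP kinase pathways.

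All values below are log2 ratios of treated over untreated RNA, so 1 is a doubling and 0 is no difference. The table does not state which channel is the numerator. Cy5 over Cy3 is the likely reading: in both orientations the descriptions name the RNA in Cy5 as test and that in Cy3 as control. Read so, the LPS-induced genes Il6 (5.11 ± 0.47), Il1b (4.63 ± 0.55) and Ptgs2 (4.26 ± 0.39) were higher in treated cells. Every direction below rests on that reading. Probes were averaged into a gene, the 2 orientations of a set were averaged into a set value, and ± is the SD over the 3 sets (n = 3). A change was called where the Benjamini-Hochberg adjusted p of limma over all 9607 measured genes was under 0.05. Ratios of total RNA from a culture cannot tell a change within cells from a change in the share of cells that express a gene.

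Promoter sequences are shown for the members with the most and the least change, Zfp36 and Socs3, and for the other measured members whose promoter held a match to a motif searched. They are RefSeq promoters of GRCm38.p6, printed 5′ to 3′ up to the annotated start, in lower case with motif matches in capitals. The motifs were the STAT element GAS (TTCNNNGAA), the cAMP response element CRE (TGACGTCA), the AP-1 site (TGACTCA), the interferon response core (GAAANNGAAA), the kappaB consensus and the CArG box, each searched on both strands.
Zfp36 (chr7:28379229-28379478, minus strand): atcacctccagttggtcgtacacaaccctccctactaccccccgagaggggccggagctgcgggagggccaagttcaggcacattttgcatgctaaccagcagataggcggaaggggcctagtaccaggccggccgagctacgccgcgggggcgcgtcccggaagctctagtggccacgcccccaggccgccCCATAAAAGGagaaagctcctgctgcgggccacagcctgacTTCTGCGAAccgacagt
Socs3 (chr11:117969367-117969616, minus strand): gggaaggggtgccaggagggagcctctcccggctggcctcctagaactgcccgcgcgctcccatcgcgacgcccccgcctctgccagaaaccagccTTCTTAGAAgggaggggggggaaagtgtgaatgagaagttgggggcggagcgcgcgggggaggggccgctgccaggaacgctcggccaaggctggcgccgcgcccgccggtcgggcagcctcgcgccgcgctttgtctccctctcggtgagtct
Tnfaip3 (chr10:19015411-19015660, minus strand): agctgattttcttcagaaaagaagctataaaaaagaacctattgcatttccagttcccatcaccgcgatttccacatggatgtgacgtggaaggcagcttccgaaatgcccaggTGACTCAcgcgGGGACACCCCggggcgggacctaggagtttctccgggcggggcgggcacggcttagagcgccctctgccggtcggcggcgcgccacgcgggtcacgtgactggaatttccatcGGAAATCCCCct
Tnip1 (chr11:54962941-54963190, minus strand): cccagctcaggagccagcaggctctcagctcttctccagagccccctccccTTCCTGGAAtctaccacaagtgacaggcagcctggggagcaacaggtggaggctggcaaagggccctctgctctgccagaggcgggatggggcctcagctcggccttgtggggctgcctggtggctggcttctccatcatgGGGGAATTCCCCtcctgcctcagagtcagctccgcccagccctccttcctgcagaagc
Dusp1 (chr17:26508473-26508722, minus strand): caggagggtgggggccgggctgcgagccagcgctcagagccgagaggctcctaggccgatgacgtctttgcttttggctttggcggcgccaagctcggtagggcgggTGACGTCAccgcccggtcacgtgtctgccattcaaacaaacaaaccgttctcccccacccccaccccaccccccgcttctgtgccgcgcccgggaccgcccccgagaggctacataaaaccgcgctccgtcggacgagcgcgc
For Socs1 and Cish only the 30 bases around the matches are printed, and those of Cish lie just after the annotated start.
Socs1 (chr16:10785597-10785626, minus strand): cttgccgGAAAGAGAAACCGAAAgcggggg
Cish (chr9:107296654-107296683, plus strand): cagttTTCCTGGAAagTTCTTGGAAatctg

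In Zfp36 the capitals mark a CArG box that begins 58 bases before the start and a GAS match 17 bases before it. The Socs3 window holds a GAS match 154 bases before the start, so both the gene that rose most and the one that did not pass the test carry this motif. Tnfaip3 has an AP-1 site 136 bases and kappaB matches 125 and 12 bases before its first annotated start. The second annotated start of Tnfaip3 had no match to any of the 6 motifs. Tnip1 has overlapping kappaB matches beginning 58 to 56 bases before its start and a GAS match at 199 bases. Dusp1 has a CRE 143 bases before its start, Socs1 has overlapping interferon response cores at 83 and 77 bases, and Cish has GAS matches at positions 1 and 12 after the start. A kappaB match also lies 155 bases before the start of Cyld, whereas Dusp2 and Dusp16 held no match in the searched window. In all 32851 promoters of the table, a GAS match was found in 8.3%, a kappaB match in 8.46%, an AP-1 site in 5.2%, an interferon response core in 3.44%, a CRE in 1.79% and a CArG box in 1.63%. A match is a stretch of letters in one window and says nothing of whether a factor binds there.

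Of the 9 measured members, 8 rose, 0 fell and Socs3 did not pass the test. Over all genes, 16.8% were called up and 14.6% down. The median member was 2.08-fold higher (log2 1.06), beside a median of log2 -0.0077 over all genes. The same 8 members were the ones higher at an unadjusted p under 0.05, and 0 were lower at that level. On all 6 arrays 8 members had one sign, against 3418 of the 9607 genes. At the level of single probes, 14 of 15 member probes were called up, against 16.9% of 13418 probes. The members were chosen with earlier results of these data known, so these counts describe them and give no independent evidence.

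**Figure D1:**
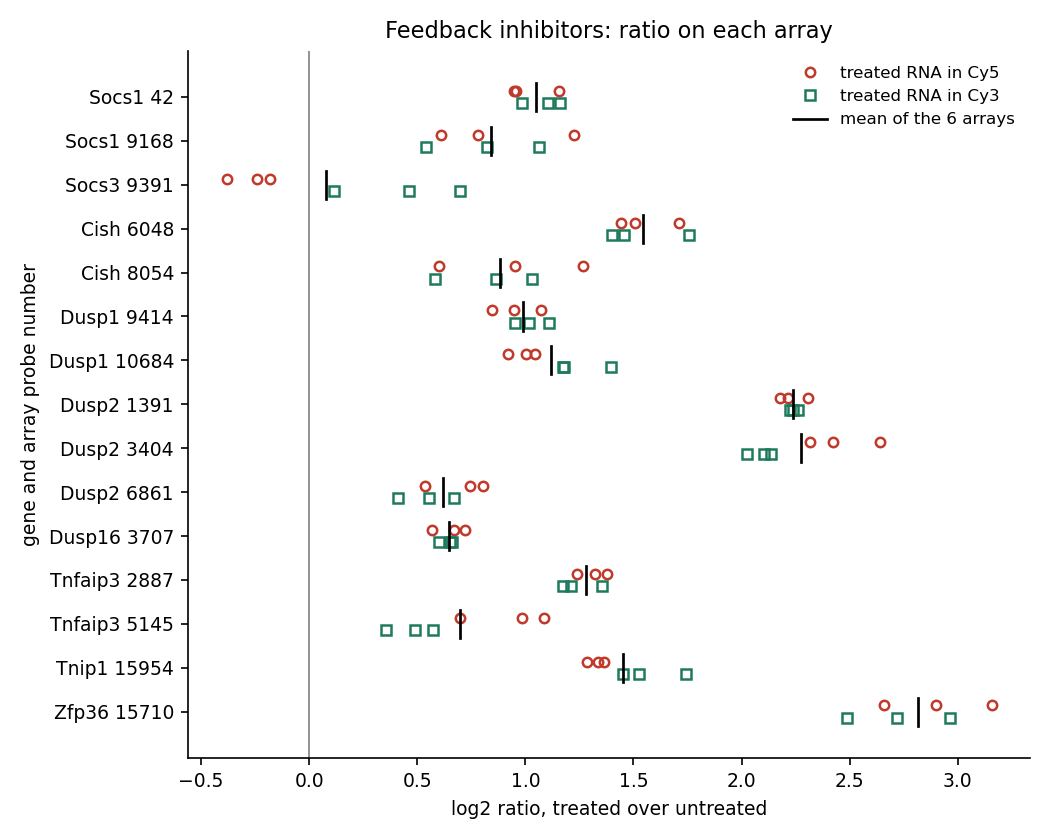
Log2 ratio of treated over untreated RNA (x axis) for each member probe (y axis, gene and array probe number) on 3 arrays of treated RNA in Cy5 (circles) and the 3 with treated RNA in Cy3 (squares), with the mean of the 6 arrays as a bar. All points lie to the right of 0 except the 3 circles of Socs3, and probe 6861 of Dusp2 lies far below the other probes of that gene.

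Among the SOCS genes, Socs1, whose protein inhibits JAK kinases directly, rose 1.93-fold (log2 0.95 ± 0.01, adjusted p = 0.000114 in limma). Its probe 42 gave 0.95, 0.96 and 1.15 in sets 1, 2 and 3 with treated RNA in Cy5 and 1.10, 1.16 and 0.99 in Cy3. Its probe 9168 gave 1.23, 0.61 and 0.78 in Cy5 and 0.54, 1.06 and 0.82 in Cy3. The second probe was the more variable and the ranges of both overlap. The SD of the set values, 0.0097, was far below the spread between single arrays of either probe. The interval from limma, which draws the variance towards that of other genes, was 1.72-fold to 2.15-fold (95%).

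Cish encodes CIS, a SOCS protein that binds phosphorylated cytokine receptors and is known as a STAT5 target. It rose 2.32-fold (log2 1.21 ± 0.12, adjusted p = 7.21e-05 in limma). Probe 6048 gave 1.71, 1.51 and 1.44 in Cy5 and 1.40, 1.76 and 1.45 in Cy3. Probe 8054 gave 1.27, 0.60 and 0.95 in Cy5 and 1.03, 0.58 and 0.86 in Cy3. The lowest value of probe 6048 (1.40) lay above the highest of probe 8054 (1.27), so the size of the rise depends on the probe, 2.92-fold by the first and 1.85-fold by the second. Probe 8054 was lowest in set 2 in both orientations, and probe 6048 was not.

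Socs3, whose protein inhibits signalling by the IL-6 receptor family, was at 0.08 ± 0.19 (adjusted p = 0.589 in limma), with a 95% interval of 0.91-fold to 1.22-fold. Its only probe, 9391, gave -0.18, -0.24 and -0.38 with treated RNA in Cy5 and 0.46, 0.70 and 0.12 with treated RNA in Cy3. The orientations did not overlap and had opposite signs. In the set means, sets 1 and 2 stood at 0.14 and 0.23 and set 3 at -0.13. Taking alone the 3 arrays that had treated RNA in Cy3, the gene was called up (log2 0.42, adjusted p = 0.0305 in limma), and on the other 3 it was at -0.27 (adjusted p = 0.107). Its call and its sign therefore differed between the orientations.

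Among the MAP kinase phosphatases, Dusp2 (PAC-1), a nuclear phosphatase of haematopoietic cells, rose most, 3.27-fold (log2 1.71 ± 0.08, adjusted p = 1.11e-05 in limma). Probe 1391 gave 2.21, 2.31 and 2.18 in Cy5 and 2.24, 2.22 and 2.26 in Cy3. Probe 3404 gave 2.32, 2.64 and 2.42 in Cy5 and 2.02, 2.11 and 2.14 in Cy3. These probes gave rises of 4.72-fold and 4.84-fold, with every array above 2. Probe 6861 gave 0.54, 0.74 and 0.80 in Cy5 and 0.41, 0.55 and 0.67 in Cy3, a 1.54-fold rise. The highest value of probe 6861 (0.80) lay far below the lowest of the other probes (2.02). With the median of the probes in place of their mean, Dusp2 stood at log2 2.16.

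Dusp1 (MKP-1), the phosphatase best known for ending p38 and JNK activity in LPS-treated macrophages, rose 2.08-fold (log2 1.06 ± 0.02, adjusted p = 7.23e-05 in limma). Probe 9414 gave 0.95, 0.85 and 1.07 in Cy5 and 0.95, 1.11 and 1.02 in Cy3. Probe 10684 gave 1.04, 0.92 and 1.00 in Cy5 and 1.17, 1.40 and 1.18 in Cy3. The probes overlapped and gave 1.99-fold and 2.17-fold. For probe 10684 all arrays with treated RNA in Cy3 lay above all arrays with it in Cy5.

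Dusp16 (MKP-7), a cytoplasmic phosphatase that acts on JNK, had the smallest called rise, 1.56-fold (log2 0.65 ± 0.04, adjusted p = 0.00064 in limma). Its probe, 3707, gave 0.67, 0.72 and 0.57 in Cy5 and 0.60, 0.66 and 0.65 in Cy3. The orientations overlapped and no array lay below 0.57.

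Tnfaip3 encodes A20, which removes and adds ubiquitin chains on signalling proteins of the NF-kappaB pathway. It rose 1.98-fold (log2 0.99 ± 0.08, adjusted p = 0.000121 in limma). Probe 2887 gave 1.38, 1.24 and 1.32 in Cy5 and 1.21, 1.36 and 1.17 in Cy3. Probe 5145 gave 0.70, 1.08 and 0.98 in Cy5 and 0.35, 0.57 and 0.49 in Cy3. The lowest value of probe 2887 (1.17) lay above the highest of probe 5145 (1.08), and the rises were 2.43-fold and 1.62-fold. The orientations of probe 5145 did not overlap, while those of probe 2887 did.

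Tnip1, which encodes the A20-binding protein ABIN1, rose 2.73-fold (log2 1.45 ± 0.09, adjusted p = 2.44e-05 in limma) by its one probe with ratios, 15954. It gave 1.33, 1.36 and 1.29 in Cy5 and 1.53, 1.74 and 1.45 in Cy3. All arrays with treated RNA in Cy3 lay above those with it in Cy5, and every array was above 1.2. With exact zeros read as ratios, probe 12304 enters the mean and the value was 0.73, still called.

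Zfp36 (tristetraprolin) rose most of the members, 7.03-fold (log2 2.81 ± 0.24, 95% interval 5.94-fold to 8.32-fold, adjusted p = 5.69e-06 in limma). Its probe, 15710, gave 2.66, 2.90 and 3.16 in Cy5 and 2.49, 2.72 and 2.96 in Cy3. Set 3 was the highest and set 1 the lowest in both orientations, and Zfp36 had the largest SD over sets of all members (0.24). By size of rise it stood at place 55 of 9607 genes.

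Ordered by their log2 change, the members ran from Zfp36 through Dusp2, Tnip1, Cish, Dusp1, Tnfaip3, Socs1 and Dusp16 to Socs3. Zfp36 exceeded Dusp2 by 1.10 ± 0.19 in the 3 sets, the widest step when probes were averaged. The size of this step depends on the Dusp2 probe: probes 1391 (2.24) and 3404 (2.27) lay much nearer to Zfp36 (2.81) than probe 6861 (0.62). With the median of the probes, Dusp2 (2.16) lay nearer to Zfp36 than to Tnip1 (1.45), so this step was then not the widest. Dusp2 exceeded Tnip1 by 0.26 ± 0.10, a step that lies within the disagreement of the Dusp2 probes. Tnip1 and Cish were 0.24 ± 0.19 apart, and Cish and Dusp1 0.16 ± 0.15, with set values that did not overlap in either case. Neither step held for single probes: Cish probe 6048 (1.55) lay above Tnip1 (1.45), and Cish probe 8054 (0.88) lay below both Dusp1 probes (0.99 and 1.12). Tnip1 also stood lower, at 0.73, with zeros kept. Dusp1 exceeded Tnfaip3 by 0.07 ± 0.06, in all 3 sets but with overlapping set values. The place of Tnfaip3 depends on the probe, since its probe 2887 (1.28) lay above both Dusp1 probes and its probe 5145 (0.70) below both. Tnfaip3 and Socs1 were 0.04 ± 0.08 apart, within the spread. The set values of Dusp1 all lay above those of Socs1, but Socs1 probe 42 (1.05) lay above Dusp1 probe 9414 (0.99). Socs1 exceeded Dusp16 by 0.30 ± 0.04 and Dusp16 exceeded Socs3 by 0.57 ± 0.15, each in all 3 sets. These are differences between changes and not between levels, since a two-colour ratio gives no level that can be compared between probes. In rank by rise, Dusp2 was at 144, Tnip1 at 203, Cish at 272, Dusp1 at 323, Tnfaip3 at 365, Socs1 at 387, Dusp16 at 673 and Socs3 at 3156 of 9607.

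**Figure D2:**
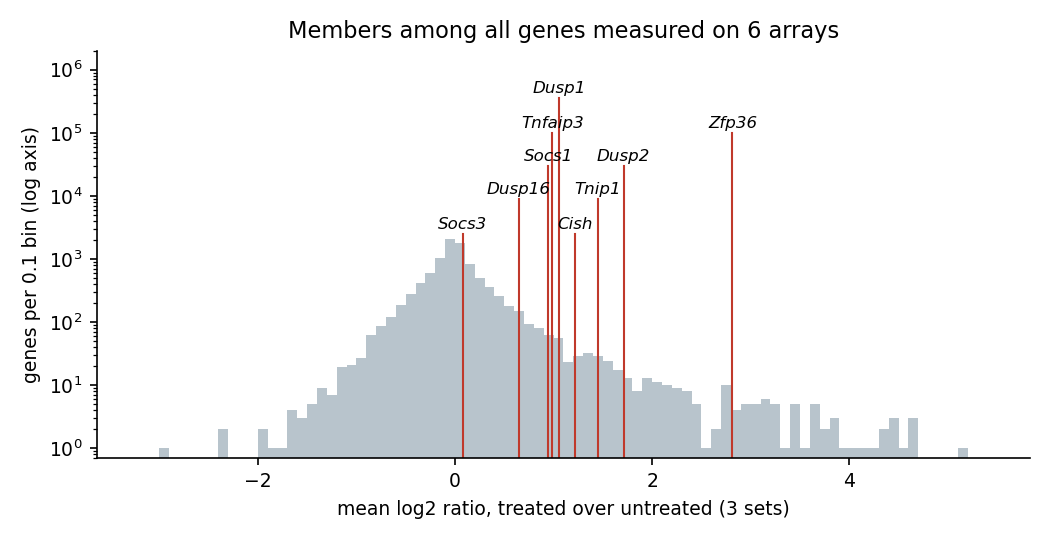
Number of genes (y axis, log scale) by mean log2 ratio over 3 sets (x axis) for the 9607 genes measured on 6 arrays, with red lines at the 9 members, whose heights only separate the names. Zfp36 at 2.81 lies in the far right tail, Socs3 at 0.08 lies in the central peak, and the other members lie between 0.65 and 1.71.

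The median set-to-set spread of the members was below that of all genes. The SDs of the members ran from 0.0097 to 0.24 with a median of 0.077, beside 0.12 over all genes. Those of Zfp36 (0.24), Socs3 (0.19) and Cish (0.1245) were above the median of all genes (0.1239). Several members were means over more than one probe, and the comparison was not matched for the number of probes. The dye term is the part of a ratio that follows the dye, taken as the difference between orientations divided by 2. Its median size was 0.086 in the members and 0.082 in all genes. In limma over the 3 set values, 0 of 9 members had a called dye term, and so did 0% of all genes, although 4 members and 2273 of the 9607 genes had an unadjusted p under 0.05. Socs3 had the largest dye term of the members (-0.35, unadjusted p = 0.0033, adjusted p = 0.142 in limma). A 6-array model with set as a random block, added after seeing the data, called it (adjusted p = 0.0388 in limma), as 1 of 288 called genes. The same model without the block called 35 genes and 0 members. The next largest dye terms, those of Tnfaip3 (0.13) and Tnip1 (-0.12), were not called in any of these fits and were smaller than the rise of either gene.

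**Figure D3:**
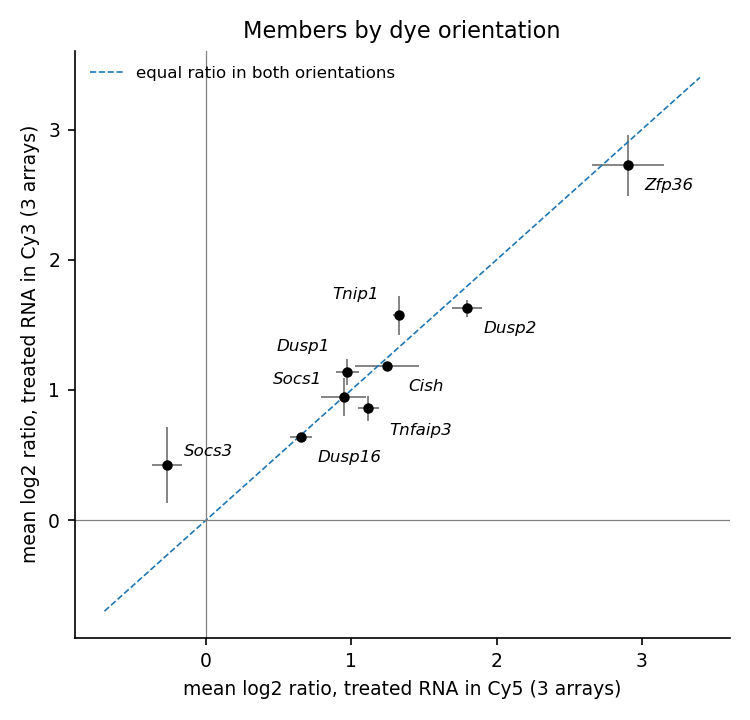
Mean log2 ratio of each member on 3 arrays of treated RNA in Cy3 (y axis) against 3 of treated RNA in Cy5 (x axis), with the SD over 3 arrays as bars and a dashed line of equality. The 8 called members lie near the line, and Socs3 lies off it at -0.27 and 0.42.

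The other genes of the same families and pathways are given by lists, which were not tested as sets. Over all genes, 16.8% were called up and 14.6% down, and a count near these shares says nothing particular of its list. Of 3 other SOCS genes measured, 1 rose and 0 fell. Socs2 was at 0.55 ± 0.42 (adjusted p = 0.0287 in limma), with 1.04 in set 3 against 0.30 and 0.32 in sets 1 and 2, while Socs5 (-0.09) and Socs6 (0.10) did not pass. Of 11 other DUSP family genes, 3 rose and 2 fell, with a median of -0.10. Dusp8, a phosphatase of JNK and p38, was 2.01-fold higher and Dusp12 1.45-fold higher, whereas Dusp14 was 1.66-fold lower and Dusp22 1.29-fold lower. Dusp6, an ERK phosphatase, was at -0.13 ± 0.52 and did not pass. Of 14 mRNA-decay and AU-rich element binding factors, 4 rose and 1 fell. Mapkapk2, the kinase that phosphorylates tristetraprolin, rose 1.73-fold and the decapping enzyme Dcp2 1.52-fold. Dcp2 was uneven, with 0.85 and 0.84 in sets 1 and 3 and 0.12 in set 2 (adjusted p = 0.0201 in limma). The close relatives of Zfp36 went opposite ways, Zfp36l1 up (0.35 ± 0.17, adjusted p = 0.0212 in limma) and Zfp36l2 down (-0.37 ± 0.14, adjusted p = 0.013 in limma).

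Among 23 cytokine receptor chains, JAKs and STATs, parts of the kind of pathway that SOCS proteins inhibit, 13 rose and 3 fell. Stat2 rose 3.05-fold and the G-CSF receptor Csf3r 2.87-fold, while the erythropoietin receptor Epor was 1.71-fold lower and Il6ra 1.38-fold lower. The list's median was 0.41, and that of the members 1.06. Of 8 MAP kinases, the substrates of the DUSPs, Mapk11 rose 1.34-fold and Mapk14 was 1.27-fold lower, both p38 isoforms, and 6 did not pass. Of 14 partners of A20 in ubiquitin editing, 5 rose and 2 fell. Birc3 (cIAP2), a ubiquitin ligase, rose 2.84-fold and the ubiquitin-conjugating enzyme Ube2d3 1.56-fold, and Tab3 (1.26-fold) and Tab1 (1.19-fold), adaptors of the kinase TAK1, were lower. Tax1bp1, an A20 adaptor, was at 0.09 and did not pass.

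Of 6 IkappaB family genes listed, 5 had a probe and 3 had a ratio on all 6 arrays. These 3 rose, Bcl3 by 6.68-fold, Nfkbiz by 3.54-fold and Nfkbie by 2.04-fold. Of 16 other inhibitors of these pathways, 8 rose and 2 fell. The interleukin 1 receptor antagonist Il1rn rose 20.6-fold and Usp18, which restrains interferon signalling, 6.54-fold. Sigirr, an inhibitory member of the IL-1 receptor family, was 1.62-fold lower and the lipid phosphatase Inpp5d (SHIP1) 1.61-fold lower. Of 20 mRNAs with AU-rich elements, listed as bound by tristetraprolin, 15 rose and 1 fell, with a median of 1.75. Il6 and Ccl2 led at 34.4-fold and 25.8-fold. The T cell cytokine Il2 was 1.22-fold lower by its 1 probe (-0.28 ± 0.16), close to the threshold (adjusted p = 0.0438 in limma). Tnf rose 3.18-fold.

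**Figure D4:**
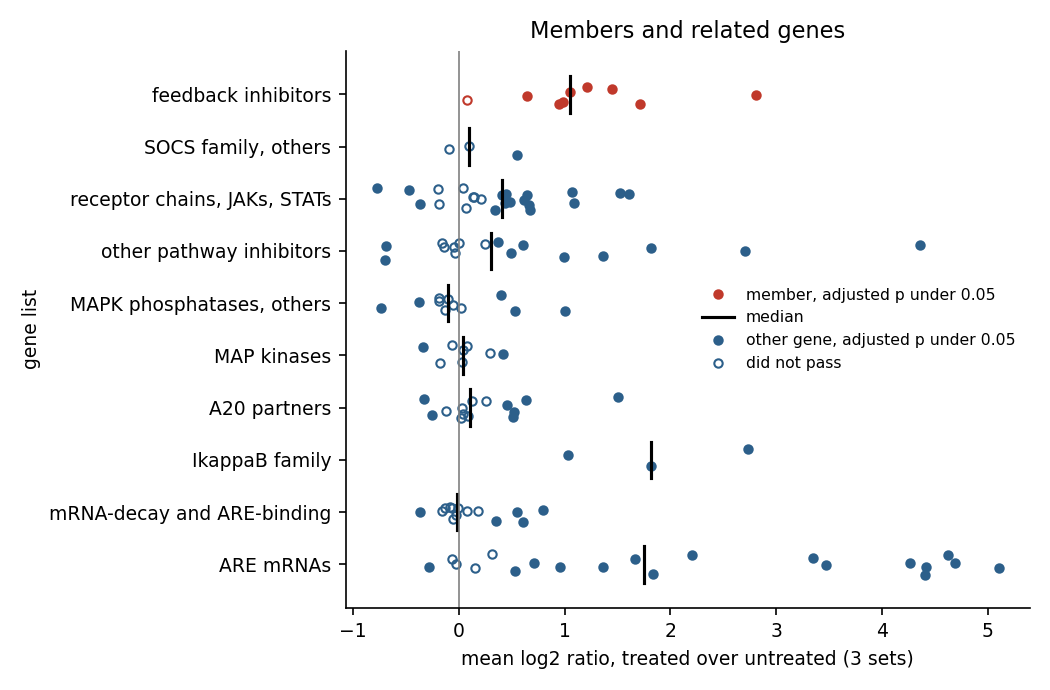
Mean log2 ratio over 3 sets (x axis) of the 9 members (red, top row) and of the measured genes of 9 related lists (blue, other rows). Filled points passed an adjusted p of 0.05 in limma, open points did not, and bars are medians; the members' bar is at 1.06, that of the IkappaB family at 1.82 and that of the other DUSP genes at -0.10.

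Genes with the pattern nearest to a member were found by the root mean square difference over the 6 arrays, for the members with the largest and the smallest mean. Nearest to Zfp36 were Ifih1 (0.16), a sensor of double-stranded RNA, Zbtb22 (0.18) and Ms4a4c (0.19), with mean log2 changes of 2.73, 2.73 and 2.74. Nearest to Socs3 were Unk (0.084), Rps28 (0.11) and Rpl36 (0.12), ribosomal proteins in the latter cases. These 3 genes had dye terms of -0.31, -0.27 and -0.28 and mean changes of 0.06, 0.02 and 0.03, none of them called. Since likeness was measured over single arrays of both orientations, a dye term near that of Socs3 was fixed by the choice of these genes.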

How the data were processed

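The 6 deposited columns of one value table were used, each holding log2 ratios of the 2 channels of an array, as read from sign and range. How background and normalization were handled, and on which scanner: not given in the sources used here. The columns have a median of 0 when exact zeros are counted as values. The highest value in the deposited log2 ratios (6.644) equals a fold of 100, so larger ratios look capped. Exact zeros (9.56% to 12.86% of an array) were taken as missing. Arrays were turned to treated over untreated, and probes of 1 symbol with a ratio on all 6 arrays were averaged per gene. The orientations of a set were averaged, and the 3 set values were tested against 0 with limma 3.58.1 in R 4.3.3 (lmFit, eBayes, two-sided, adjusted over all genes or all probes). Dye terms were tested in the same way. The fit was tested on simulated data. Members and lists were chosen with earlier results of these data known. The named related genes are, for each list, at most 2 called genes with the strongest rise and 2 with the strongest fall, plus some chosen after their values were seen (Socs5, Socs6, Dusp6, Zfp36l1, Tax1bp1, Nfkbie, Tnf, Il1b and Ptgs2). Promoters and gene names come from RefSeq tables of GRCm38.p6, and Python 3.11.15 made the figures. The number of arrays limits the precision, and probe sequences were not analysed here, so probes of near-identical genes are uncertain.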

Additional observations from a re-analysis of the deposited data

Results flagged for a closer look

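The Socs3 ratio stood apart by dye orientation. Its mean with treated RNA in Cy5 was 0.69 below that with treated RNA in Cy3 (a difference of -0.69 on the log2 scale), because all 3 arrays of the first kind were below 0 and all 3 of the second above it. The dye term missed the threshold over the 3 sets (adjusted p = 0.142 in limma) and passed it in the 6-array model with set as a random block (adjusted p = 0.0388 in limma). No other member had opposite signs in the orientations.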

How the results depend on the processing

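Results of the members were recomputed under 13 alternatives, and 115 of 117 member values kept their direction and their side of the threshold. Both exceptions are of Socs3, at -0.27 when only arrays of treated RNA in Cy5 were used and 0.42 when only those of Cy3 were, the latter called, so that 9 members rose there. At the gene level the 8 rises were called under all 13, including without any one set, with quantile normalization, with robust moderation and with other choices of probes. With exact zeros kept as ratios, 2159 probes were called in place of 4129, among more probes tested, and 13 of 16 member probes in place of 14 of 15. Set numbers were checked as pairs by the correlation of deviations from the orientation means, which was 0.188 for set 1, 0.050 for set 2 and 0.544 for set 3. Arrays of different number reached similar values, 0.188 for set 1 in Cy5 with set 2 in Cy3 and 0.196 for set 2 in Cy5 with set 1 in Cy3. The numbers of sets 1 and 2 therefore were not shown to pair arrays. With no replicate block, 3649 genes were called in place of 3018, and 8 members rose. With set as a random replicate block 3088 genes were called and 8 members rose. For dye terms, alternatives added after seeing the data called 35 genes with no replicate block and 288 genes with 1 member (Socs3) with the random block, in place of 0; the cause was not tested. The ratios carry no signal over background, so dim probes could not be set apart.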
